A study of Homo sapiens with 12 samples.

Results

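Chromosome 19 carries the largest collection of C2H2 zinc finger genes in the human genome, and 240 of its 1451 protein-coding genes bear a symbol made of ZNF and a number. These 240 genes were chosen by a rule of symbol and chromosome that used no measured value, though with earlier results of these data known. They were compared with the other 1211 protein-coding genes of chromosome 19. The peaks came from acRIP-seq, in which fragmented RNA is pulled down with an antibody to N4-acetylcytidine (ac4C) and sequenced. The cells were SW620, a human colorectal cancer line, in which lentiviral shRNA gave a stable shControl line, labelled wild type, and a stable shNAT10 line, labelled NAT10 knockdown. There were 3 immunoprecipitated libraries of each, numbered 1 to 3, and the 6 input samples were not analysed here. Which of the shNAT10 constructs was used, and whether the 3 libraries of a line came from separate cultures, is not given in the sources used here, so the spread between libraries may be technical.

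Most ZNF proteins encoded on this chromosome bind DNA through a row of zinc fingers, and many begin with a KRAB domain that recruits TRIM28 and, through it, the histone methyltransferase SETDB1 to silence transposable elements. The genes arose by repeated local duplication, lie in groups of close relatives and share long stretches of similar sequence. NAT10 is the enzyme that acetylates cytidine to ac4C, a mark of rRNA and tRNA that has also been described on mRNA, where it has been linked to stability and translation.

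Of the 240 ZNF genes, 157 (65.4%) carried a peak in some library, 40 (16.7%) in all 6, and 83 had none. Their peaks were few and low in score, and at the 5′ ends of transcripts they were only slightly rarer than in other genes of the chromosome, while away from those ends the gap was wide. A peak was given to a gene when its midpoint lay within the gene's span in the GRCh38.p14 table on the same strand, and to either strand for the 30 ZNF genes whose strand the table of start sequences does not give. In these bulk libraries an unacetylated mRNA, a scarce one and one made by few of the cells cannot be told apart, since all would leave a gene without a peak.

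Start peaks are those that overlap the first 50 transcribed bases of a listed transcript start. Among the 210 ZNF genes with a listed start, 80 had such a peak in some library and 15 in all 6. The sequences below are the first 30 transcribed bases, from RefSeq on GRCh38.p14, written 5′ to 3′ as DNA on the strand of the gene. The first set is shown because these neighbours in the ZNF175 to ZNF331 group share a stretch of sequence at starts that carried peaks. Start peaks need not cover the 30 printed bases. Those of ZNF808 began at chr19:52527709, past its printed bases. Capitals mark CCGGAAG or its reverse complement CTTCCGG, letters that ETS family transcription factors are known to recognise in promoter DNA.
ZNF160, chr19:53103393-53103422, minus strand: agacCCGGAAGtggatcgtgcggagcaagc
ZNF766, chr19:52269587-52269616, plus strand: agacCCGGAAGtggatggcgtggagatatg
ZNF525, chr19:53365705-53365734, plus strand: agacgcgcgcaaacCCGGAAGcagatcgcg
ZNF845, chr19:53333749-53333778, plus strand: aaacCCGGAAGcggatcgcatggagtgatg
ZNF808, chr19:52527668-52527697, plus strand: aaacCCGGAAGcggatcgggtggagtgaag

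ZNF160 and ZNF766 share a run of 16 bases, and ZNF845 and ZNF808 one of 18. ZNF160, a KRAB protein linked to silencing of TLR4 in intestinal epithelial cells, had the same peak of 172 bases in all 6 libraries, with scores of 2838.1, 3100 and 2461.15 in shControl 1 to 3 and 3100 in each shNAT10 library. ZNF766 had a start region of 61 bases in all 6 libraries, at 2544.88, 2742.07 and 1687.63 in shControl and 3100, 1273.41 and 3100 in shNAT10. The score has a floor near 50, a pile of peaks at exactly 3100 and a highest value of 3233.06 in each library. Both genes had scores at or below 3100, and the groups overlapped. ZNF525 had a start region in 5 libraries, missing in shNAT10 1, with scores from 148.05 to 289.56. ZNF845 also had one in 5 libraries, missing in shControl 1, with scores from 54.36 to 711.41, and that of ZNF808 was in 4, with scores from 210.59 to 519.38. These 3 starts thus had peaks in most libraries, at lower scores than those of ZNF160 and ZNF766. What the score measures is not given in the sources used here, so it is not read as strength of the mark. How reads that match several of these genes were treated is not given in the sources used here, so values of close relatives are uncertain.

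The same letters on the other strand stood at further starts. Of these, 4 nearer the end of the chromosome are shown because their starts carried peaks in at least 3 libraries. ZNF675, in the ZNF101 to ZNF254 group next to the centromere, also had them at a start with a peak in 3 libraries and is not shown. ZNF551 and ZNF530 share a run of 19 bases. The start peaks of ZNF470 began at chr19:56567511, past its printed bases. Those of ZNF787 reached only to chr19:56121280, which leaves out its marked letters.
ZNF551, chr19:57681977-57682006, plus strand: ggaaCTTCCGGcgtcctcctcgtggcggtc
ZNF530, chr19:57599885-57599914, plus strand: ggaaCTTCCGGcgtcctccctgtggcgggc
ZNF787, chr19:56121266-56121295, minus strand: aCTTCCGGcctgggcgcccgtccccctgac
ZNF470, chr19:56567468-56567497, plus strand: aCTTCCGGaaaggacccaaagccgggcgag

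The search for CCGGAAG on either strand of the first 50 transcribed bases, chosen after these sequences were seen, found it in 33 of 210 ZNF genes (15.7%), in 27 of 975 other coding genes of chromosome 19 (2.77%) and in 3.32% of all 15842 coding genes with a listed start. Over all 35116 listed windows of that length the share was 1.93%. CCGGAAG was found in 17 of 195 ZNF-number genes of other chromosomes (8.72%). Outside the ZNF175 to ZNF331 group, 14 of 178 ZNF genes of chromosome 19 had it (7.87%). In the ZNF175 to ZNF331 group it was present in 19 of 32 genes (59.4%), on the strand of the gene in each. Within this group 12 of the 18 genes with a start peak had it (66.7%), and so did 7 of the 14 without (50%). Outside the group the counts were 7 of 62 (11.3%) and 7 of 116 (6.03%). The letters were thus common among related starts both with and without peaks. A pattern of 4 cytidines spaced by 2 other bases, CNNCNNCNNC, was searched on the strand of the gene because repeats of this form have been described around ac4C. It was found in 31.0% of ZNF genes, 38.8% of all coding genes and 36.3% of ZNF genes with a start peak. On the opposite strand these shares were 48.6%, 51.6% and 38.75%. On the strand of the gene, 45.6% of ZNF-number genes of other chromosomes had it. So did 43.8% of the other chromosome 19 genes with a start peak. A link of the pattern to start peaks was not tested.

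Along the gene span, ZNF peaks lay towards the 5′ end. In shControl 1 to 3, 42.3%, 28.3% and 42.7% of ZNF peaks had their midpoint in the first 500 bases of the span, and in shNAT10 1 to 3, 29.8%, 40.7% and 37.9%. The 6-library mean was 36.9% ± 6.36 (SD), against 12.5% ± 1.02 for the other coding genes of chromosome 19. From 10 to 50 kb the order was turned, with 15.9% ± 4.42 between 10 and 20 kb and 10.1% ± 1.48 between 20 and 50 kb for ZNF genes, and 19.6% ± 0.513 and 24.3% ± 0.742 for the others. The median span was longer for ZNF genes, 23130.5 bases against 12798. On a scale from 0 at the 5′ end of the span to 100 at the 3′ end, the median peak of ZNF genes lay at 22.3 ± 10.2 and that of the others at 58.2 ± 0.789 (difference -36.0 ± 9.95, lower in 6 of 6 libraries, exact sign-flip p = 0.031, adjusted p = 0.0402). With the top-scored 50% of peaks alone the difference was -5.43 (exact sign-flip p = 0.344). The ZNF-number genes of other chromosomes also leaned to the 5′ end, with a median position of 33.3 on average, and the chromosome 19 genes differed from them by -11.1 ± 8.22 (exact sign-flip p = 0.031, adjusted p = 0.031).

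**Figure D1:**
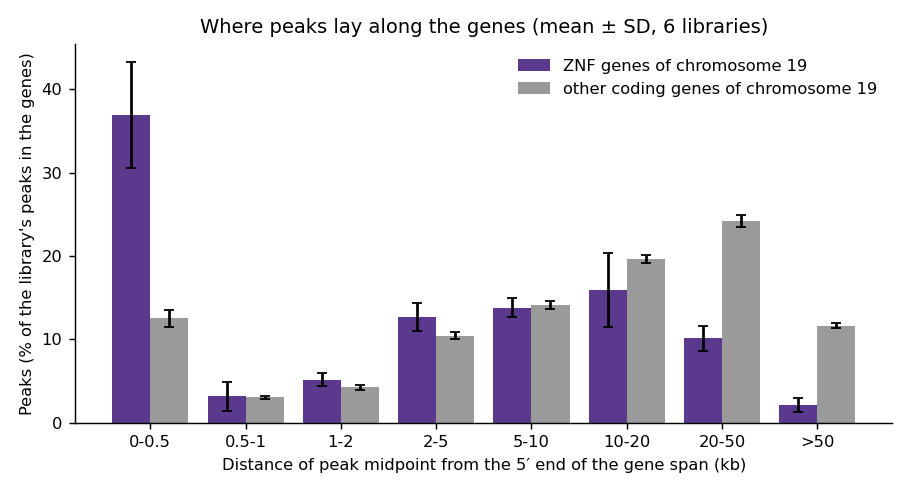
Bars give the mean percent of a library's peaks whose midpoint fell in each distance bin from the 5′ end of the gene span (kb), with the SD over 6 libraries, for the ZNF genes and the other coding genes of chromosome 19 with a listed strand. In the first bin the ZNF genes held 36.9% of their peaks and the others 12.5%.

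The share of peaks that covered a listed start was 39.2%, 34.6% and 45.8% in shControl 1 to 3 and 31.5%, 46.5% and 38.8% in shNAT10 1 to 3. The shControl and shNAT10 values overlapped (39.9% ± 5.63 and 39.0% ± 7.48, exact permutation p = 0.9, n = 3 per group). In the other coding genes of chromosome 19 the share was between 13.1% and 16.4%, below the ZNF share in 6 of 6 libraries, with a mean difference of 24.1 percentage points ± 5.75 (SD, n = 6; two-sided exact sign-flip permutation p = 0.031, Benjamini-Hochberg adjusted p = 0.0402 over 9 measures). That p is the smallest that 6 libraries can give. In the ZNF-number genes of other chromosomes the share was 29.4% on average, and the chromosome 19 genes exceeded it by 10.0 points ± 5.58 (exact sign-flip p = 0.031, adjusted p = 0.031).

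The higher share went with fewer peaks away from the starts and not with more start peaks per gene. Counted by gene, 18.1%, 21.0% and 20.5% of ZNF genes with a listed start had a start peak in shControl and 25.2%, 19.05% and 19.05% in shNAT10. The other coding genes had one slightly more often, between 20.5% and 25.8%, and the ZNF genes were lower in 6 of 6 libraries, with a difference of -2.96 points ± 1.98 (exact sign-flip p = 0.031, adjusted p = 0.0402). That gap was -4.53 with equal peak numbers, -5.47 when any overlap with the span counted, and -9.71 with the top-scored 50% of peaks. Away from the starts the gap was wider. There 22.4%, 31.0% and 18.6% of ZNF genes had a peak in shControl and 37.6%, 18.1% and 24.3% in shNAT10, against 45.6% to 58.7% of the others, a difference of -24.8 points ± 4.17 (exact sign-flip p = 0.031, adjusted p = 0.0402).

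Start peaks of ZNF genes were shorter than their other peaks in 6 of 6 libraries, with median lengths of 172 to 195.5 bases against 205 to 447 (mean difference -117 bases ± 86.7, exact sign-flip p = 0.031, adjusted p = 0.0469 over 3 measures, n = 6). Their score percentile, the rank of a score among all peaks of its library, differed from that of the other ZNF peaks by -3.69 ± 14.6, higher in 2 libraries and lower in 4 (exact sign-flip p = 0.594, n = 6). In the other coding genes start peaks ranked above the rest by 13.4 ± 3.82 in 6 of 6 libraries (exact sign-flip p = 0.031, adjusted p = 0.0469, n = 6). The difference between these contrasts was not tested.

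In each library a smaller share of ZNF genes than of other genes of the same chromosome had a peak. With the 6 libraries pooled, the shares with a peak in some library were close, 65.4% and 68.5%. The shares with a peak in all 6 were 16.7% and 38.0%. ZNF genes with a peak numbered 84, 95 and 84 of 240 in shControl 1 to 3. In shNAT10 1 to 3 they numbered 114, 75 and 82, with shNAT10 1 the highest and shNAT10 2 the lowest. As a share this was 37.1% ± 5.76, from 31.2% to 47.5%, against 51.9% ± 4.35 of the others, and the difference was -14.8 points ± 1.62 (lower in 6 of 6 libraries, exact sign-flip p = 0.031, adjusted p = 0.0402), or -23.0 with the top-scored 50% of peaks. The 237 ZNF-number genes of other chromosomes had a peak more often than either, in 51.5% to 69.6% of cases, and exceeded the chromosome 19 genes by 22.3 points on average in 6 of 6 libraries (exact sign-flip p = 0.031, adjusted p = 0.031). The low share was thus not a feature of all ZNF-number genes. Nor was it particular to the chosen genes. Of 21 other chromosome 19 genes named for C2H2 fingers, 9 had a peak in some library and 3 in all 6, with no test made.

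ZNF genes with a peak had 1.42 ± 0.147 peaks each, against 2.90 ± 0.194 in the other genes (6 of 6 libraries lower, difference -1.48 ± 0.0767). No ZNF gene had more than 4 peaks in a library, while the highest number among the others was 31. Median score percentiles of ZNF peaks were 34.1, 37.5 and 36.3 in shControl and 39.0, 40.6 and 41.3 in shNAT10, against 57.2 to 62.2 in the others (difference -22.0 ± 2.01). Both differences had an exact sign-flip p of 0.031 and an adjusted p of 0.0402. With only the 50% of peaks of highest score, the score difference shrank to -2.19 (exact sign-flip p = 0.312). Median peak length, 210 bases ± 22.7 against 215 ± 11.1, did not differ beyond the spread (exact sign-flip p = 0.469).

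**Figure D2:**
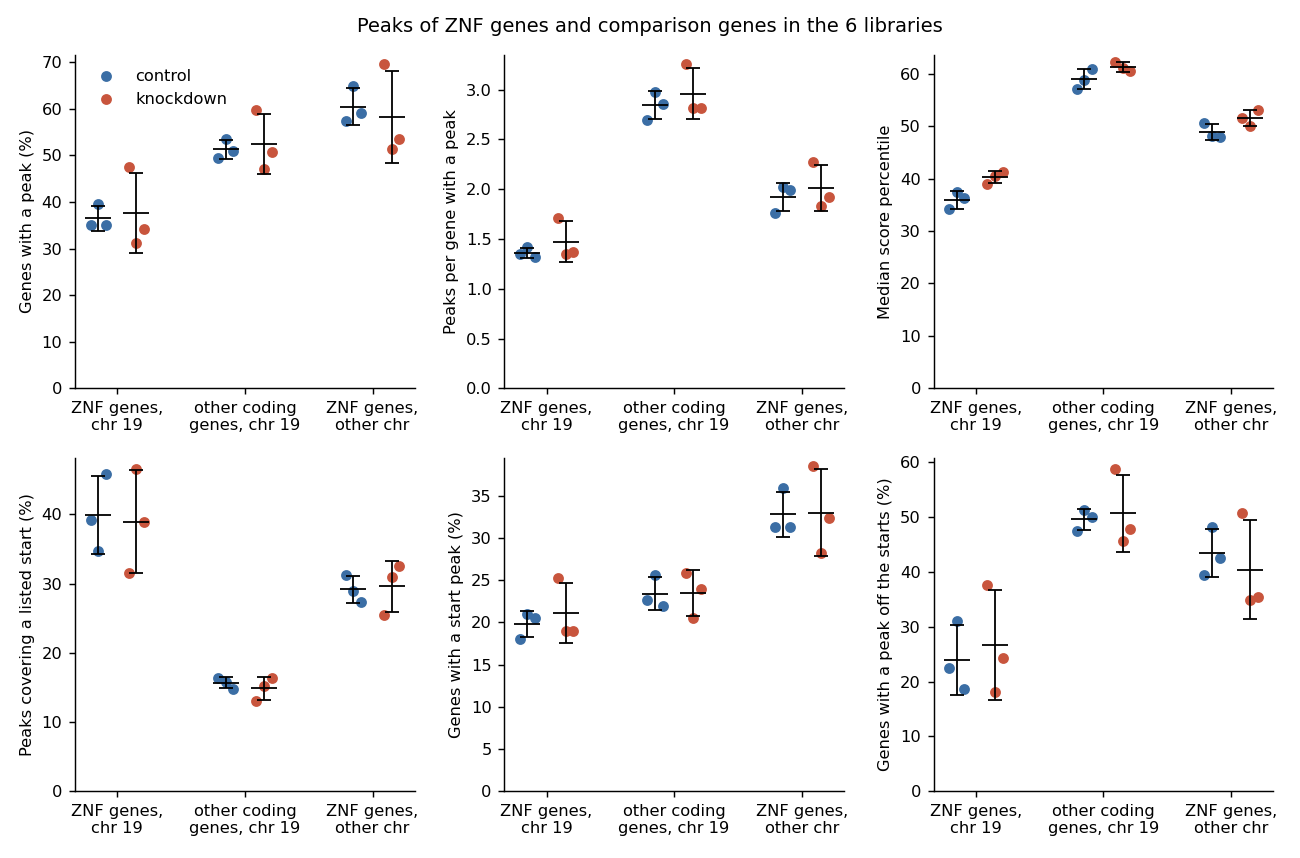
Each point is 1 library (blue shControl, red shNAT10); black bars give the mean and SD of 3 libraries. Columns are the 240 ZNF genes of chromosome 19, its other 1211 coding genes and the 237 ZNF-number genes of other chromosomes; the panels show genes with a peak, peaks per gene, median score percentile, the share of peaks at a listed start, and genes with a peak on or off the starts. The ZNF genes of chromosome 19 lie below the others in genes with a peak and above them in the share of peaks at a start.

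The 3′ end is where the zinc fingers of most of these proteins are encoded. Between 31.5% and 40.7% of ZNF peaks had their midpoint in the last 5 kb of the span and 30.9% to 33.6% of the peaks of the other genes, a difference of 2.18 points ± 4.28 (higher in 4 of 6 libraries, exact sign-flip p = 0.375), and 0.660 without shNAT10 2. When each list was cut to its top-scored 50%, the difference was 20.97 points, higher in 6 of 6 libraries (exact sign-flip p = 0.031). With equal numbers of peaks per library it was 5.18 points (exact sign-flip p = 0.031). Among the peaks kept by these score limits, those of ZNF genes thus lay in the last 5 kb more often than those of other genes. Over all peaks the difference from the other genes was within the spread. In the ZNF-number genes of other chromosomes the share over all peaks was 22.6% on average. The chromosome 19 ZNF genes exceeded it by 11.7 points ± 3.93 (exact sign-flip p = 0.031, adjusted p = 0.031). No exon annotation was used here, so a peak was not placed in coding or untranslated sequence.

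Several genes with peaks at a score of 3100 in all 6 libraries belonged to the last group along the chromosome, from ZNF628 to ZNF446 (chr19:55476617-58489533, 57 genes), of which 37 had a peak and 16 had one in all 6 libraries. ZNF787 had 3 peaks in each library except shNAT10 2, which had 4. Its start region (chr19:56121172-56121280) and its 3′ region (chr19:56087366-56089092) both scored 3100 in all 6 libraries, and a region between them (chr19:56101650-56103227) scored from 1146.94 to 3192.24. ZNF628 had a region of 3287 bases near its 3′ end (chr19:55481201-55484487) and ZNF579 one of 2872 bases (chr19:55576770-55579641), also at 3100 throughout. ZNF580 and ZNF581 overlap, and a region of 1707 bases (chr19:55641763-55643469) at 3100 in all 6 libraries lies in both, so it cannot be given to either. The regions at 3100 in all 6 libraries shared that score with many other peaks, so their scores show no difference between libraries.

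ZNF444, a SCAN domain protein that binds the promoter of an endothelial scavenger receptor gene, had 2 peaks in shControl 1 and 3 in each other library. Its internal region (chr19:56146088-56146420) scored 943.62, 2854.45 and 2392.08 in shControl and 2981.12, 1543.45 and 889.71 in shNAT10. The spread within each line was wider than the difference between them. ZNF574, in a pair with ZNF526 where both genes had peaks in all 6 libraries, had 2 peaks in each library and a 3′ region of 2963 bases (chr19:42078587-42081549) with scores from 352.59 to 3220.51. ZNF490 ranged from 1 to 4 peaks, ZNF71 from 1 to 3, and ZNF576, ZNF653, ZNF784 and ZNF837 from 2 to 3. ZNF296 had 2 in each library. None of these 7 genes separated the lines by its number of peaks.

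**Figure D3:**
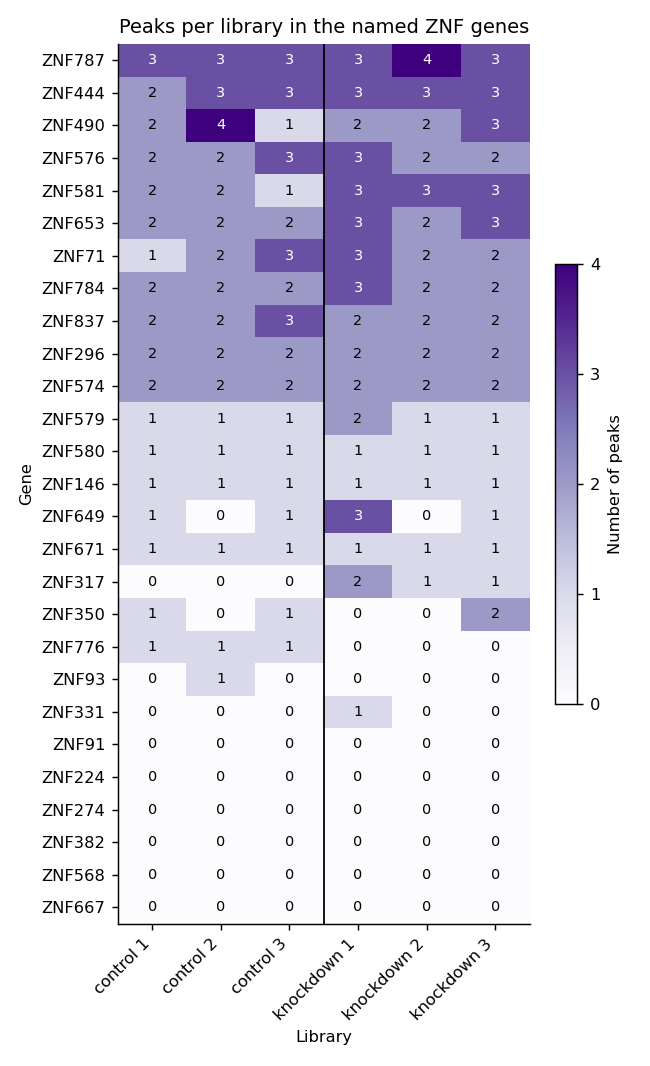
Numbers and shading give the peaks per library (columns, 3 shControl and 3 shNAT10, divided by the black line) in each ZNF gene named in the text by a fixed rule (rows), ordered by their total. ZNF787 leads with 3 or 4 peaks, and the lowest 6 genes have none in any library.

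Genes chosen for what is known of them, whatever their values, were evenly divided, with 6 of 12 without a peak in any library. ZNF91 and ZNF93, which repress SVA and LINE-1 retrotransposons, had no peak in any library and 1 peak in shControl 2, respectively. ZNF274, which recruits SETDB1 to zinc finger gene clusters, and ZNF224, a repressor of aldolase A, had none, and neither had ZNF382, ZNF568 or ZNF667. ZNF331, an imprinted gene, had 1 peak in shNAT10 1 and none elsewhere. ZNF350, a partner of BRCA1 in repression of GADD45A, had 1, 0 and 1 peaks in shControl and 0, 0 and 2 in shNAT10. ZNF649 had 1, 0 and 1 in shControl and 3, 0 and 1 in shNAT10, with no strand to assign them by.

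ZNF146 and ZNF671 were the members of this list with a peak in all 6 libraries. ZNF146, a protein made of zinc fingers with no KRAB domain, had 1 start region (chr19:36214602-36215196), at 1179.36, 1055.25 and 1884.48 in shControl and 3100, 1386.1 and 1380.15 in shNAT10. ZNF671, often silenced by methylation in tumours, had 1 region inside the gene (chr19:57723214-57723340), at 290.89, 192.27 and 86.08 in shControl and 175.16, 287.47 and 126.08 in shNAT10. In both, the lines overlapped.

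The ZNF genes fall into 16 groups when neighbours more than 1 Mb apart are split. The group from ZNF101 to ZNF254 (chr19:19668153-24129968), which lies next to the centromere and holds ZNF91 and ZNF93, had 37 genes, of which 17 had a peak in any library and 1, ZNF431, had one in all 6. Its share with a peak was 16.2%, 27.0% and 18.9% in shControl and 24.3%, 18.9% and 16.2% in shNAT10. In the ZNF175 to ZNF331 group (chr19:51571283-53580269, 39 genes) the values were 51.3%, 46.2% and 48.7% in shControl and 64.1%, 41.0% and 46.2% in shNAT10, above the centromeric group in every library. These groups were picked after their values were seen, and no test was made between them. The median GC content of the 300 bases around the listed starts was 56.0% in the first and 61.5% in the second, whose part in the difference was not tested.

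Start peaks were still found in the centromeric group, in 11 of its 29 genes with a listed start. ZNF431 and ZNF714 are shown because they are close relatives with low-scored start peaks in 6 and 5 libraries; no letters are marked.
ZNF431, chr19:21142040-21142069, plus strand: gtctctcgccgcagcctgagctccaggtct
ZNF714, chr19:21082203-21082232, plus strand: gtctctcgctgcagctggagctgcaggtct

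The start region of ZNF431 scored 62.31, 150.19 and 157.42 in shControl and 541.18, 68.25 and 58.48 in shNAT10. That of ZNF714 was absent from shControl 1 and scored from 54.71 to 361.61 elsewhere, again highest in shNAT10 1. Across all ZNF genes the median GC content around the starts was 60.6%, against 64.2% in the other coding genes of chromosome 19. It was 58.2% in ZNF genes without a peak, 61.3% in those with a peak but no start peak and 61.7% in those with a start peak.

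The comparison of shNAT10 with shControl asks which peaks depend on NAT10. For the ZNF genes as a set, the numbers of genes and peaks and the share of peaks overlapped between the lines, while the score percentile did not. The number of genes with a peak was 87.7 ± 6.35 in shControl and 90.3 ± 20.8 in shNAT10 (exact permutation p = 1, n = 3 per group). The number of peaks was 117 ± 14.5 and 133 ± 51.2 (exact permutation p = 0.9), from 110, 134 and 108 in shControl and 192, 98 and 110 in shNAT10. Without shNAT10 1, whose list of 28752 peaks was the longest of all (17877 to 22619 in the other libraries), these differences turned to -9.17 genes and -13.3 peaks. As a share of the peaks in chromosome 19 coding genes, ZNF peaks made up 6.30% ± 0.390 and 6.51% ± 0.984 (exact permutation p = 0.9). With 3 against 3 libraries no p can fall below 0.1.

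The median score percentile of ZNF peaks was higher in each shNAT10 library than in any shControl library, 40.3 ± 1.16 against 36.0 ± 1.70, with the smallest p the design allows (exact permutation p = 0.1). Of 10 such quantities compared it had the lowest p, and its Benjamini-Hochberg adjusted p was 1. Over the 210 genes with a known strand the difference fell to 2.80 (exact permutation p = 0.3), and with the 50% of peaks of highest score it was -3.20 (exact permutation p = 0.7). The difference between ZNF and other genes did not itself change with the knockdown in any of the 9 measures beyond the spread (exact permutation p from 0.2 to 1, adjusted p = 1 in each).

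A gene was called changed when it had a peak in all 3 libraries of one line and none of the other. ZNF776 was the single ZNF gene with peaks only in shControl (0.417% of 240), and 0.204% of all 20052 coding genes met that rule. ZNF317 was the single ZNF gene with peaks only in shNAT10 (0.417%), with 0.224% of all coding genes. With 1 gene in each direction, nothing can be read from the excess over these backgrounds. Both changed at their listed starts, whose sequences are shown because they are the genes that separated the lines.
ZNF776, chr19:57746815-57746844, plus strand: agtggccattttgattggtgttgggtgtat
ZNF317, chr19:9140397-9140426, plus strand: agtgaagcggaagccattactctctggagt

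The ZNF776 peak (chr19:57746796-57747091) scored 188.81, 529.62 and 77.17 in shControl 1 to 3 and was not called in shNAT10. The ZNF317 start peak (chr19:9140380-9140592) scored 50.86, 173.4 and 204.28 in shNAT10 1 to 3 and was not called in shControl, and shNAT10 1 had a second peak in the gene. These scores were far below 3100, where many peaks piled up, and in ZNF317 the lowest score was just above the floor of 50. With equal numbers of peaks per library ZNF776 kept its 3 against 0, while ZNF317 was left with 2 shNAT10 libraries and ZNF558 met the rule instead. With the top-scored 50% of peaks neither was called, ZNF776 being left with 1 library and ZNF317 with none, and ZNF414, ZNF460 and ZNF497, which had peaks in all 6 libraries before that limit, were then found only in shNAT10. With a difference of at least 2 libraries as the rule, 14 ZNF genes were called, 8 with more shControl and 6 with more shNAT10 libraries. Leaving out each library in turn, which relaxes the rule to 3 against 2, gave 3 to 5 genes. The share of all coding genes that met these other rules was not counted, so nothing can be read from these numbers.

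By the number of peaks per gene, ZNF776 was the only 1 of 240 ZNF genes whose shControl libraries were all above shNAT10. Of all 20052 coding genes, 0.404% met that condition. ZNF317 and ZNF581 were the 2 ZNF genes with the reverse, as were 0.972% of all coding genes. ZNF581 had 2, 2 and 1 peaks in shControl and 3 in each shNAT10 library. Taking peaks that overlapped in any library as 1 region, the ZNF genes had 304 regions. Of these, 1 was found only in shControl and 3 only in shNAT10. Of all 40413 regions in coding genes, 0.332% were found only in shControl and 0.829% only in shNAT10. With so few ZNF genes and regions, nothing can be read from a comparison with these backgrounds. The shNAT10 regions were the ZNF317 start, a 3′ region of ZNF581 (chr19:55644553-55645622) with scores of 1528.81, 303.4 and 514.18, and a region of ZNF653 (chr19:11485656-11485770) with scores of 120.76, 199 and 129.6. The ZNF581 region had the highest scores of them and lay downstream of the shared region that scored 3100 in every library.

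How often a region recurred across libraries was counted, with no test between gene sets. Of the 304 ZNF regions, 39 (12.8%) were found in all 6 libraries and 157 (51.6%) in 1 library, 68 of them in shNAT10 1. Of 3144 regions in the other coding genes of chromosome 19, 27.4% were found in all 6 and 29.6% in 1. Within the ZNF genes, 16 of 79 start regions (20.3%) were found in all 6 libraries and 20 of 185 other regions (10.8%), while 18 and 116 (62.7%) were found in a single library. Of the 147 ZNF regions found in at least 2 libraries, 63 (42.9%) had the same first and last base in each, and of 2214 in the other genes 67.4%.

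The partners through which KRAB proteins silence were also examined, as counts with no test against the ZNF genes. Of a list of 21 co-repressor genes, 17 had a peak and 13 had one in all 6 libraries. TRIM28, itself on chromosome 19, had 1, 0 and 1 peaks in shControl and 1 in each shNAT10 library. SMARCAD1, a chromatin remodeller that binds TRIM28, was the single gene of the list called by the rule above, with no peak in shControl and 1 in each shNAT10 library. Of all 20052 coding genes 0.224% met that rule in this direction, and nothing can be read from 1 gene. Of 21 other chromosome 19 genes named for C2H2 fingers, 9 had a peak and 3 had one in all 6.

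The lists held 17877 to 28752 peaks per library, without read counts, so depth is unknown. NAT10 had 1, 0 and 2 peaks in shControl and 2, 0 and 1 in shNAT10, which is no measure of its level and does not check the knockdown. Of 10 markers of colorectal epithelium 7 had a peak, and of 6 markers of other cells 2, VIM and COL1A1. CEACAM5, an epithelial surface antigen among the 7, met the call rule, with 2, 1 and 3 peaks in shControl and none in shNAT10. Of all 20052 coding genes 0.204% met the rule in this direction, and nothing can be read from 1 gene.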

How the data were processed

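SW620 acRIP-seq peaks of 3 shControl and 3 shNAT10 libraries were analysed; groups came from the sample titles. The authors deposited 1 list of mRNA peaks per library, with a score (from 50, many at 3100) whose definition, like the aligner, caller settings and treatment of multiply mapped reads, is not given in the sources used here; the build, per the labels, is GRCh38. Scores were ranked within libraries only. Peaks were assigned by midpoint and strand to 20052 coding genes from the RefSeq table of GRCh38.p14, with strand from its start sequences (4210 genes, 30 ZNF genes, had none and took either strand). Between 5 and 10 ZNF peaks per library lay in several genes.

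Two-sided exact permutation tests over libraries were used: group labels for shNAT10 against shControl, and sign flips of the within-library difference for ZNF against other genes, with Benjamini-Hochberg adjustment. Genes and regions were called by presence in 3 libraries against 0. The scripts were tested on simulated data. Python 3.11.15, numpy 2.4.6, pandas 2.3.3 and scipy 1.17.1 were used.

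Genes named were those called, the 10 with most peaks, the 5 of highest score, those whose peak numbers or leading regions separated the lines, and 12 with known roles. ZNF160, ZNF766, ZNF525, ZNF845, ZNF808, ZNF551, ZNF530, ZNF470, ZNF675, ZNF431, ZNF714, ZNF628, ZNF526, ZNF558, ZNF414, ZNF460, ZNF497 and the measures on listed starts were chosen after values were seen. Members and lists were chosen with earlier results of these data known. Alternatives were score filters, equal peak numbers, other assignment and call rules, pairing and leaving out each library.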

Additional observations from a re-analysis of the deposited data

How the results depend on the processing

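Leaving out each library in turn gave, for shNAT10 minus shControl, -9.17 to 10.3 ZNF genes with a peak, -13.3 to 33.7 peaks, -0.354 to 0.547 points of share and 3.41 to 5.09 of score percentile, and the share also turned to -0.0122 without shControl 3. The counts of called genes and regions ran from 3 to 5 and 6 to 9. With equal peak numbers the genes and the share were at -0.333 and -0.0570, and with the 50% of peaks of highest score the percentile was -3.20. For ZNF minus other genes, with a smallest p of 0.0625 for 5 libraries, the ranges were -15.3 to -14.5 points with a peak, -1.51 to -1.47 peaks per gene, -22.6 to -21.5 of percentile, -11.8 to -3 bases of length, -38.7 to -34.1 of relative position, 0.660 to 2.92 points in the last 5 kb, 22.7 to 25.3 points at a start, and -3.43 to -2.56 and -25.7 to -23.5 points of genes with a peak on and off the starts. With the 50% of peaks of highest score the percentile was -2.19, the position -5.43, the last 5 kb 20.97 and the length 272.5; the last 5 kb was 5.18 with equal peak numbers (exact sign-flip p = 0.031, as at 20.97), and the length 0.167 whatever the strand, 2.92 for peaks in 1 gene and 6.33 for genes with a strand, an alternative added after seeing the data. A difference of at least 2 libraries called 14 genes and 25 regions, with no share over all genes or regions counted under that rule. With the 50% of peaks of highest score neither ZNF776 nor ZNF317 was called. The cause was not tested. Library numbers did not pair the samples (correlations of -0.192, -0.154 and 0.0290 over 1451 genes, and not every sample closest to its own number); with the replicate block the exact sign-flip p was 1, 0.75, 0.75 and 0.25 for genes, peaks, share and percentile, with differences of 2.67, 16, 0.210 and 4.34, and no call changed. Features of the proteins were planned and not run, since no protein table was used here.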
